A study of Mus musculus with 2 samples.

Results

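C-type lectins, Siglecs, CD300 receptors, SIRP receptors and the immunoglobulin-like LILR and PIR receptors are mostly cell-surface proteins through which myeloid cells read sugars, sialic acids and self proteins. Many belong to families of closely related genes, in which an inhibitory member carries a tyrosine motif in its tail (ITIM) that recruits phosphatases such as SHP-1, and an activating member signals through an adaptor with an activating motif (ITAM), often Tyrobp, towards the kinase Syk. In microglia, which are the macrophages resident in brain and spinal cord, such receptors are known as brakes and triggers of phagocytosis and inflammatory activity. The members were all array probes whose gene name begins with Siglec, Clec and a digit, Cd300, Lilr, Pira, Pirb, Sirpa or Sirpb, or is Mgl1, Mgl2, Cd33 or Cd22. This rule, which uses no measured value, gave 87 of the 55669 probes used and 59 of 35014 genes, of which 32 were C-type lectins, 8 Siglecs, 8 CD300 genes, 8 LILR and PIR genes and 3 SIRP genes.

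The samples are spinal cord microglia, isolated by sorting, from controls and from an atopic diathesis mouse model, atopic diathesis being a tendency to allergic disease. Their total RNA was amplified, labelled with Cy3 and measured on 1-colour Agilent arrays. There was 1 control array, from the sample titled normal, and 1 atopic diathesis array, from the sample titled activated. Strain, age, how the model was made, the gate of the sort and how many animals each sample pooled are not given in the sources used here. A group is a single array (n = 1), so nothing could be tested, there is no p-value, and every value describes these samples alone. In RNA from a sorted population, fewer cells of a type and less RNA per cell cannot be told apart.

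By the scanner software's call, 24.1% of all probes stood well above background in control and 27.6% in atopic diathesis microglia, and no spot was saturated. The lowest signals so called were 19.8 and 19.9. All 10 microglia markers examined, among them Tmem119, P2ry12, Cx3cr1 and Sall1, were well above background on both arrays and within 2-fold between them. None of the 7 border macrophage, 4 monocyte and 8 neutrophil markers on the array was well above background on either, Mrc1, Cd163, Ccr2, S100a8 and Ly6g included. Some genes known from other cells were above background on both arrays, namely the oligodendrocyte gene Mbp (101 and 146), the astrocyte gene Gfap (83.3 and 69.5) and Cd4 (378 and 304). Their part in the receptor values was not tested.

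Genes are called measured here if 1 or more of their probes passed that call on both arrays. By that rule 14 of the 59 receptor genes were measured (23.7%), where 26.3% of all genes were. A further 2 passed in atopic diathesis only, against 8.05% of all genes, and 2 in control only, against 4.14%. By probe, 16 of 87 (18.4%) passed on both arrays, where 20.2% of all probes did. The remaining 41 genes were detected on neither array. The families differed in these counts: 5 of 8 Siglecs were measured and 4 of 32 C-type lectins, with 3 of 8 CD300 genes, 1 of 3 SIRP genes and 1 of 8 LILR and PIR genes.

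**Figure D1:**
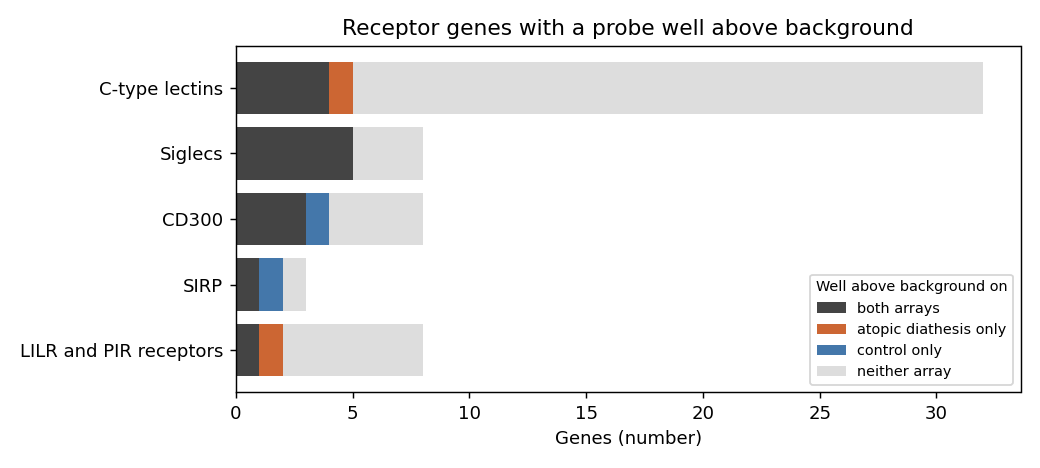
Number of receptor genes in each family (horizontal bars) that were detected, meaning well above background, on both arrays, in atopic diathesis only, in control only or on neither. In the C-type lectins 27 of 32 genes were on neither array, and in the Siglecs 3 of 8. Cd22, Cd300a, Cd300lg and Pirb count as detected on both arrays only through probes with a repeat or shared run.

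The difference of a gene is the mean of its log2 signal on the atopic diathesis array minus that on the control array over its measured probes, relative to the median of the 9209 measured genes, and higher or lower means at least 2-fold. Of the 14 measured receptor genes 3 were higher in atopic diathesis microglia: Clec4a3, Mgl2 and Siglecf. In all measured genes the share was 17.3%. Clec7a and Siglece were lower, where 15.6% of all measured genes were. On a scale set by the 75th percentile over every probe, 987 of all measured genes were higher and 2501 lower, in place of 1594 and 1433. The shares of the receptor genes (21.4% and 14.3%) lay near these backgrounds, so their number is no result about the receptors. The other 9 genes were within 2-fold, and the median of all 14 was 0.027 on the log2 scale, beside 0 for all measured genes by construction.

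The array measures each gene with probes of 60 bases, most often 1, and the probe sequence bears on how a signal can be read. The 30 bases that open the probes of the genes past 2-fold are shown here, 5′ to 3′ as in the scanner files, because they held no repeat and no run shared with a probe of another gene. The last of them, of Clec2d, was detected in atopic diathesis alone.
Clec4a3: gccaatggttatacatatgataatactggc
Mgl2: cgggtcccctcctccttccttcataactag
Siglecf: ggccagcaaacatacaagaaggtaatctca
Clec7a: ttaataccacccttatttccagtgtggact
Siglece: ccatgcccctgtgctgccctgtccacacaa
Clec2d: tcttctccctcttggtctttttaaagacca

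Among the 16 measured probes of the receptor genes, 5 held either a tandem repeat of at least 16 bases or a run of at least 20 bases found in probes of other genes. The 30 bases around these stretches are shown with the repeat or shared run in capitals, since the genes that were flat between the arrays include these.
Cd22: atgaaaAACCAACCAACCAACCAAacaaaa
Siglech: tctgtctcAAAGAAAGAAAGAAAGAAAGAA
Cd300a: gtgtgtatgtgtaTATGTATGTATGTATGT
Cd300lg: aatCTTCCTTCCTTCCTTCCTTCCTTCCTT
Pirb: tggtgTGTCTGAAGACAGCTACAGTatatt

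Probes of this kind stood apart across the whole array. Of the 464 probes with such a tandem repeat, 82.8% were well above background on both arrays, compared with 18.3% of the 51480 probes with neither feature. Of the 4030 probes that shared a run with a probe of another gene, 43.4% were. Once measured, 9.11% of probes with a tandem repeat were past 2-fold in either direction, beside 36.7% of those with neither feature. The repeat in the Cd22 probe is a 4-base unit over 18 bases, that of Siglech spans 22 bases, that of Cd300a 17 and that of Cd300lg 27. Of the 10 receptor probes with either feature, 5 were detected on neither array. Those of Cd300ld3, Lilra6, Pira7 and Pira11 hold a shared run and no tandem repeat. The remaining one, a Cd300lf probe, has a 2-base unit over 18 bases. The other receptor probes with a tandem repeat, of Cd22, Siglech, Cd300a and Cd300lg, were detected on both arrays. Whether these signals come from the named genes was not tested.

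Among the activating lectins, Clec7a, also called Dectin-1, binds beta-glucans and signals through Syk from a motif of its own. Its signal was 219 in control and 51.5 in atopic diathesis microglia, and the atopic diathesis value is the dimmer and nearer to background. The log2 difference was -2.05 ± 0.48, 4.15-fold lower, where the ± here and below is the 95% interval from repeated spots of other probes at like signal and leaves out animals, sorts and amplifications. With normexp background correction it was -1.27, and with uncorrected signals -1.13. The probe lies on chromosome 6 at 129411739 to 129411798, minus strand, in build mm9, which the scanner files use for all positions given here. Exon and UTR positions are not given in those files.

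Clec4a3, which RefSeq also lists as Dcir3, is one of the C-type lectins of the dendritic cell immunoreceptor group. It had signals of 133 and 448, higher in atopic diathesis microglia by a log2 difference of 1.78 ± 0.23, or 3.44-fold. Its value with uncorrected signals was 1.27. Of the 9 receptor genes in the same stretch of chromosome 6, 122884578 to 123232937, Clec4a3 alone was measured, where 26.3% of all genes were. With so few related genes, the count is no result about the stretch. The other 8 (Clec4a1, Clec4a2, Clec4a4, Clec4b1, Clec4b2, Clec4d, Clec4e and Clec4n) include Mincle, the product of Clec4e, and Dectin-2, the product of Clec4n, which sense microbial glycolipids and mannans, and none was well above background on either array. The Clec4a3 probe lies at 122919637 to 122919696, plus strand.

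Mgl2, or CD301b, is a lectin for galactose and N-acetylgalactosamine known from dendritic cells and alternatively activated macrophages. Its signal was 2063 in control and 6438 in atopic diathesis microglia, a log2 difference of 1.68 ± 0.14 and 3.19-fold higher. Its position is chromosome 11, 69950985 to 69951044, on the plus strand. Clec10a, the closely related lectin gene also called Mgl1, had signals of 4.13 and 4.35 and was not well above background. The 7 border macrophage markers summed to signals of 34.2 and 31.8, with none above background. Of 6 dendritic cell markers Itgax alone was above background, at 88.9 and 97.0, while Flt3, Zbtb46, Xcr1, Ccr9 and Ccr7 were not.

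Clec2d, known as a ligand of the NKR-P1 receptors of natural killer cells, was detected in atopic diathesis alone. Its signals were 6.66 and 180, which makes it at least 9.29-fold higher. Such a bound sets the bright signal over the higher of the dim probe's own signal and the lowest signal well above background on the dim array. The bound was 3.27-fold under normexp and 2.74-fold without background correction. Of 11 receptor genes in their stretch of chromosome 6, 128626525 to 129411798, Clec2d and Clec7a were detected. Of all genes 26.3% were detected on both arrays, 8.05% in atopic diathesis only and 4.14% in control only, so the count is no result about the stretch. The other 9 there include Clec9a, a marker of cross-presenting dendritic cells, Clec12a, an inhibitory receptor of myeloid cells, and Clec1b, a platelet receptor. Clec3b encodes tetranectin, a secreted lectin, and had signals of 29.9 and 35.9, near background, with a log2 difference of 0.30 ± 0.48.

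The 27 C-type lectin genes detected on neither array rested on 38 undetected probes, with signals of 3.92 to 12.2 in control and 3.99 to 15.2 in atopic diathesis microglia. Besides those named above they were Clec1a, Clec2e, Clec2g, Clec2h, Clec2i, Clec2l, Clec3a, Clec4f, Clec4g, Clec5a, Clec11a, Clec12b, Clec14a, Clec16a and Clec18a. Several of these are known from other cells, such as Clec4f from Kupffer cells, Clec4g from liver sinusoids and Clec14a from endothelium. Clec16a, which despite its name takes part in mitochondrial quality control, had 3 probes, none above 15.2.

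**Figure D2:**
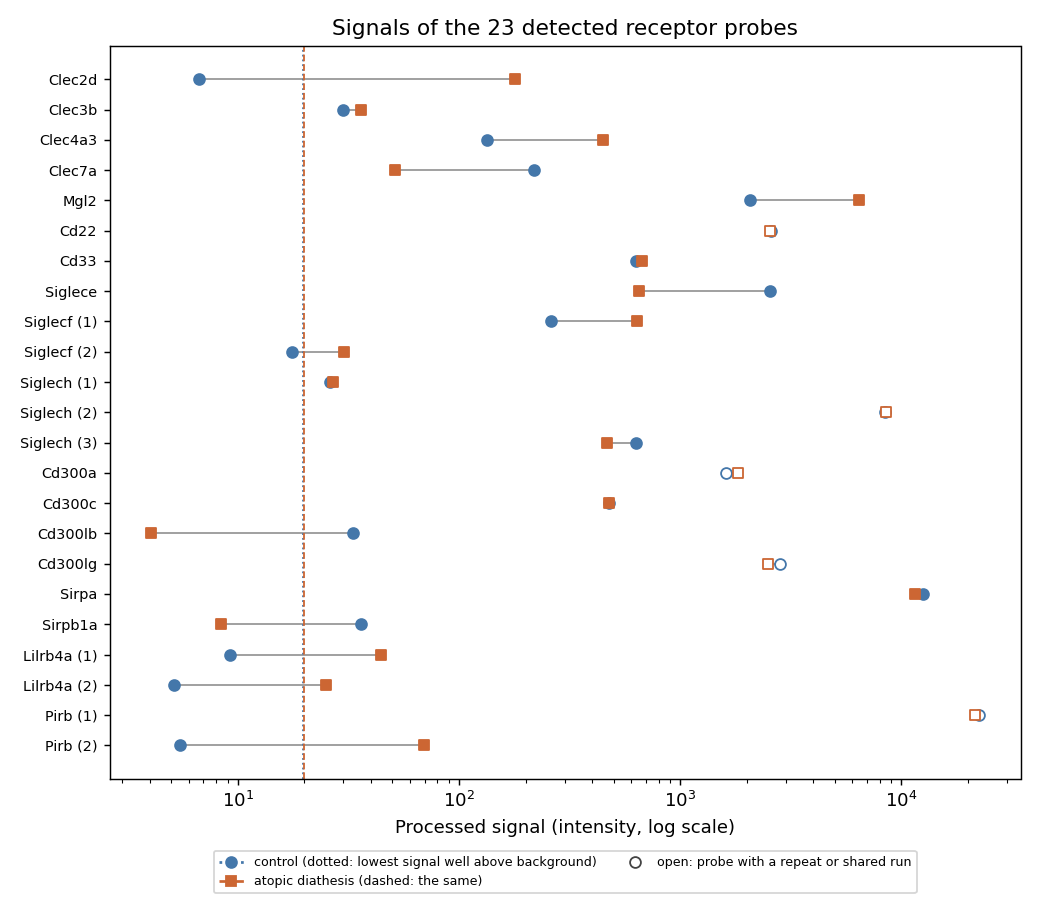
Processed signal (intensity, log axis) of each of the 23 receptor probes well above background on at least 1 array, with control as circles and atopic diathesis as squares. Open symbols mark probes with a tandem repeat or shared run, and vertical lines the lowest signals well above background, 19.8 and 19.9. Clec4a3, Mgl2, Siglecf, Clec7a and Siglece are measured on both arrays and clearly apart, whereas the open symbols nearly coincide.

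Siglecs bind sialic acids on the cell's own surface or on neighbours. Siglece, an inhibitory Siglec with ITIMs that is known from neutrophils, macrophages and microglia, read 2548 in control and 654 in atopic diathesis microglia. It was 3.80-fold lower, with a log2 difference of -1.93 ± 0.23. The range over the processing alternatives was -2.43 to -1.71. Its probe lies on chromosome 7 at 50906669 to 50906728, minus strand. The 8 neutrophil markers were detected on neither array, at summed signals of 56.2 and 66.6.

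Siglecf, which the scanner files still call Siglec5, is the ITIM-bearing Siglec of mouse eosinophils and alveolar macrophages. Its brighter probe gave signals of 260 and 637, a log2 difference of 1.33 ± 0.23, or 2.51-fold higher in atopic diathesis microglia. The second probe read 17.5 and 30.2, detected in atopic diathesis alone and in the same direction. On that 75th percentile scale Siglecf was at 0.83 and no longer past 2-fold. Where detection on a single array sufficed, which adds the second probe and also sets the median over more genes, it was at 0.89. The brighter probe lies on chromosome 7 at 50614768 to 50614827 and the second at 50611746 to 50611805, both on the plus strand. Of 7 mast cell and eosinophil markers, Prg2, Epx, Ear1, Cpa3, Kit and Tpsb2 were detected on neither array. The remaining one, the mast cell protease gene Mcpt4, read 5.02 and 56.5 on a probe that shares a run with probes of other genes or holds a repeat, and the 7 together summed to 66.7 and 126. Their part in the Siglecf difference was not tested.

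Siglech, a Siglec without an ITIM that pairs with Tyrobp and marks microglia and plasmacytoid dendritic cells, was measured by 3 probes. The brightest, which holds the tandem repeat shown above, read 8445 and 8508. The second, free of such a feature, read 628 and 469, a log2 difference of -0.39 ± 0.23, and the third 26.1 and 27.1. Their mean difference was -0.09. They lie on chromosome 7 at 63034088 to 63034147, 63033826 to 63033885 and 63028608 to 63028667.

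Cd33 had signals of 628 and 674, a log2 difference of 0.13 ± 0.23, so the arrays did not differ beyond the spot error. Cd22, an inhibitory Siglec known above all from B cells, read 2564 and 2533 on its single probe, the one with the AACC repeat. Of the 2 probes of other genes that share its run, both were above background on both arrays, with log2 differences of 0.23 and 0.33. Of the B cell markers reported here, Ms4a1 and Cd79a were not well above background, Cd79b read 5.43 and 37.0, and Pax5 20.4 and 23.7. Siglec1, Siglecg and Siglec15 were detected on neither array, with signals from 3.99 to 14.4. Siglec1, or sialoadhesin, is known from tissue-resident and interferon-exposed macrophages and Siglecg from B cells.

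CD300 receptors bind lipids such as phosphatidylserine, exposed on dying cells. Cd300a, an inhibitory member, read 1619 and 1816 (log2 difference 0.20 ± 0.14), and Cd300lg, also called nepmucin and known from endothelium, read 2825 and 2502 (-0.14 ± 0.14). Both rest on a single probe with a tandem repeat. The endothelial markers Cldn5 and Cdh5 were not well above background, Kdr read 128 and 104, and Pecam1 5.64 and 127. Cd300c, whose probe has no such feature, had signals of 476 and 477 and a difference of 0.04 ± 0.23. Cd300lb, an activating member that signals through Tyrobp, was above background in control microglia only, at 33.1 and 4.07, which gives a bound of at least 1.62-fold lower in atopic diathesis. Among all genes above background in control only, 51.3% had a bound of at least 2-fold. Cd300e, Cd300ld, Cd300ld3 and Cd300lf, the last with 3 probes, were detected on neither array. In the chromosome 11 stretch from 114765539 to 114977855, which holds 7 of these genes, Cd300a, Cd300c and Cd300lb were detected. Of all genes 26.3% were detected on both arrays and 4.14% in control only.

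Sirpa, the inhibitory receptor for the self signal Cd47, read 12574 in control and 11529 in atopic diathesis microglia, a log2 difference of -0.09 ± 0.14, on a probe with no repeat (chromosome 2, 129457873 to 129457932, plus strand). Sirpb1a, an activating receptor of the same family, was above background in control only by 1 of its 3 probes, at 36.2 and 8.44, at least 1.78-fold lower in atopic diathesis. That probe lies on chromosome 3 at 15731274 to 15731333. The other 2 Sirpb1a probes, at 15378994 to 15379053 and 15410412 to 15410471, read at most 7.73 and 14.4. The Sirpb1b probes, at 15495798 to 15495857 and 15542342 to 15542401, lie between these and the detected probe. Whether its signal comes from Sirpb1a was not tested. Sirpb1b was not well above background.

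Pirb, or paired immunoglobulin-like receptor B, is an inhibitory receptor for MHC class I and for myelin proteins such as Rtn4, and its 3 probes, all named Lilrb3 in the files, gave different answers. The brightest read 22440 and 21567, a log2 difference of -0.02 ± 0.14. It shares a run of 20 bases or more with 15 probes of other genes. All 15 were above background on both arrays, with differences from -0.35 to 0.09 and a median of -0.08. The second, which has no such feature (chromosome 7, 3664137 to 3664196, minus strand), read 5.47 in control and 69.5 in atopic diathesis microglia. The third read 4.17 and 12.9. With probes that hold a repeat or shared run left out, an alternative chosen after seeing the data, Pirb was above background in atopic diathesis only and at least 3.61-fold higher.

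Lilrb4a, an inhibitory receptor also called gp49B, was detected on the atopic diathesis array only by both its probes. These read 9.27 and 44.6, and 5.16 and 25.1. The brighter gave a bound of at least 2.31-fold higher, and 59.4% of all genes detected on that array only had a bound of at least 2-fold. With normexp correction the bound was 1.27-fold. The activating members Pira2, Pira6, Pira7, Pira11, Lilra5 and Lilra6 were not well above background, with signals up to 12.7 and 19.4. Probes of Lilra6, Pira7 and Pira11 share runs with probes of other genes.

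**Figure D3:**
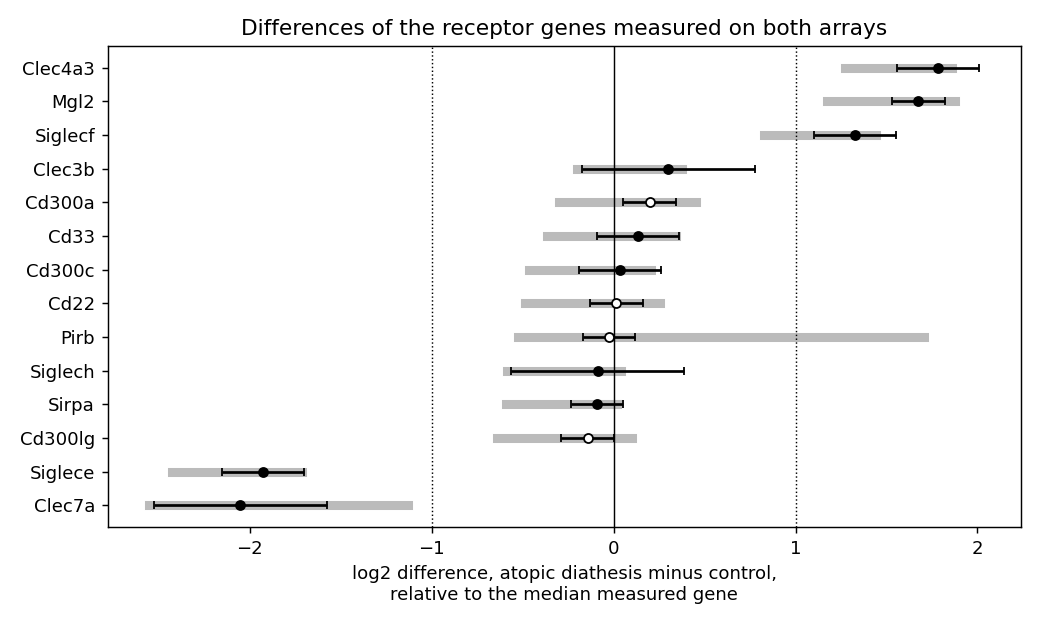
The log2 difference (horizontal axis) of the 14 receptor genes measured on both arrays, with the main value as a point, the 95% interval from repeated spots as a black bar and the range over all processing alternatives in grey. Open points are genes measured by probes with a repeat or shared run alone, and dotted lines mark 2-fold. Clec4a3, Mgl2 and Siglecf lie on the right and Siglece and Clec7a on the left, with the other 9 between the dotted lines in the main setting.

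With probes that hold a repeat or shared run left out, 10 receptor genes remained measured, of which the same 3 were higher and the same 2 lower. Cd22, Cd300a and Cd300lg then had no measured probe, nor had Pirb. The remaining 5 within 2-fold were Clec3b, Cd33, Siglech, Cd300c and Sirpa.

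**Figure D4:**
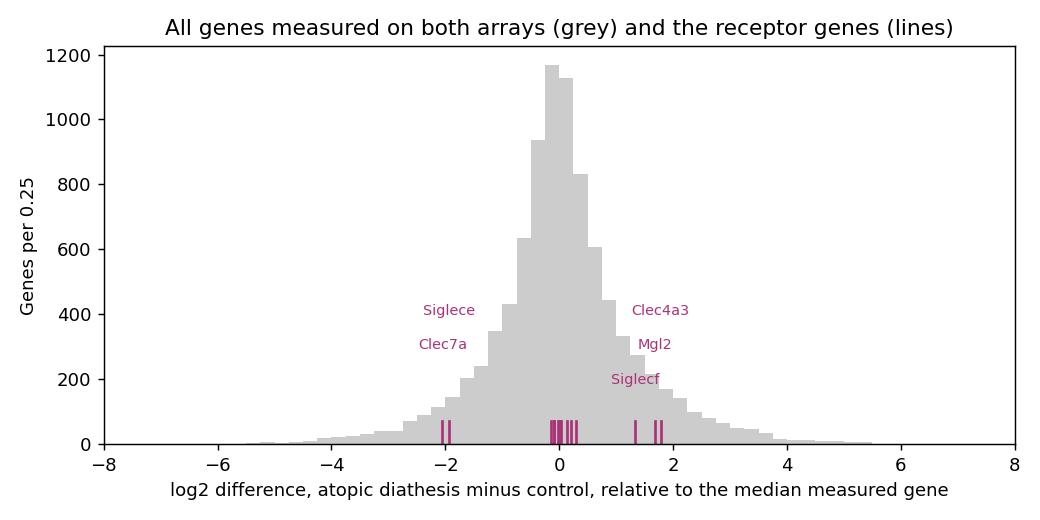
Number of genes (vertical axis) per 0.25 of log2 difference (horizontal axis) for all 9209 genes measured on both arrays in grey, and the 14 receptor genes as lines with the 5 past 2-fold named. The named genes lie within the spread of all genes, of which 17.3% were higher and 15.6% lower by 2-fold or more.

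Partner genes were taken from lists chosen together with the members. Of all genes 26.3% were measured, and of all measured genes 17.3% were higher and 15.6% lower. Above background in atopic diathesis only were 8.05% of all genes, and in control only 4.14%. Of these, 59.4% and 51.3% had a bound of at least 2-fold. Bounds of partner genes, here and below, are given for the main setting alone. Such bounds depend on the processing: that of Clec2d fell from 9.29-fold to 2.74-fold without background correction. With so few genes in a list, no count is read as a result about it. Of 20 genes of activating adaptors and kinases 9 were measured, 2 of them higher and none lower, at a median of 0.15. The adaptor Tyrobp, shared by Siglech, Cd300lb and Sirpb1a, read 4871 and 4358 (log2 difference -0.13 ± 0.14), and the adaptor Fcer1g, which serves the PIR-A receptors, 5842 and 9422 (0.72 ± 0.14). The kinases Btk (64.3 and 902, 3.84 ± 0.48) and Lyn (64.1 and 197, 1.65 ± 0.48) were higher. With uncorrected signals Btk was at 2.62 and Lyn at 1.01. Syk, the kinase downstream of Clec7a, was detected in atopic diathesis alone, at 22.2 and 115, at least 5.31-fold higher, and the kinase Fyn at 4.45 and 190, at least 9.85-fold. The adaptor Hcst was above background in control only, at 84.8 and 12.7, at least 4.17-fold lower. So was Card9, which acts downstream of Syk, at 33.3 and 15.2, at least 1.64-fold lower.

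Of 11 inhibitory phosphatases and ligases 7 were measured, where 26.3% of all genes were. Among the 7, 1 was higher and 2 lower, at a median of 0.08, where 17.3% and 15.6% of all measured genes were higher and lower. The lower ones were 2 phosphatases that bind ITIMs, Ptpn6, encoding SHP-1, and Ptpn11, encoding SHP-2. Ptpn6 read 851 and 386 (-1.11 ± 0.23), and Ptpn11 186 and 62.4 (-1.54 ± 0.48). With uncorrected signals these were -0.97 and -0.76, no longer past 2-fold. Normexp also ended both calls, at -0.99 and -0.84, and quantile normalization that of Ptpn6, at -0.92. The lipid phosphatase Inpp5d, SHIP-1, read 306 and 200 (-0.58 ± 0.23) and was within 2-fold. Its relative Inppl1, SHIP-2, was higher on signals of 34.4 and 92.1 (1.45 ± 0.48), but at 0.58 with uncorrected signals. The ubiquitin ligase genes Cblb (263 and 11.8) and Cbl (62.9 and 4.41) were above background in control only, at least 12.9-fold and 3.09-fold lower.

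Of 14 ligands of the receptors 3 were measured, where 26.3% of all genes were, and these were within 2-fold: Cd47, Lgals9 and Rtn4. The measured Cd47 probes disagreed, at -1.90 and 0.54, which leaves its mean of -0.68 without a direction. Vim, at 12.6 and 438, Thbs1, at 4.53 and 53.9, and Mag, at 14.9 and 48.9, were detected in atopic diathesis alone, at least 22.6-fold, 2.79-fold and 2.53-fold higher.

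Of 30 genes that build, attach or remove the sialic acids read by Siglecs, 10 were measured, where 26.3% of all genes were. Of these 1 was higher and 3 lower, at a median of -0.46, where 17.3% and 15.6% of all measured genes were higher and lower. The lower ones were the sialyltransferases St3gal2 (391 and 105, -1.86 ± 0.23), St8sia4 (log2 difference -1.21 ± 0.23) and St3gal6 (627 and 306, just past the threshold, and at -0.86 with uncorrected signals, which ends the call). St3gal6 also fell short of 2-fold with normexp, at -0.88, and quantile normalization, at -0.86, among other alternatives. St8sia4 was at -0.72 with uncorrected signals, and St3gal2 at 0.19 with no filter on dim probes. St6gal1, which makes the linkage preferred by Cd22, was higher (39.5 and 120, 1.63 ± 0.48), though at 0.78 with uncorrected signals. St3gal4 (4.88 and 263), St3gal3 (15.5 and 187), St6galnac6 and St6galnac5 were above background in atopic diathesis only, by bounds from 2.45-fold to 13.6-fold. Cmas, which activates sialic acid for transfer, was above background in control only, at 121 and 14.7, at least 5.93-fold lower. The sialidase Neu1 read 120 and 191 (0.71 ± 0.23).

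**Figure D5:**
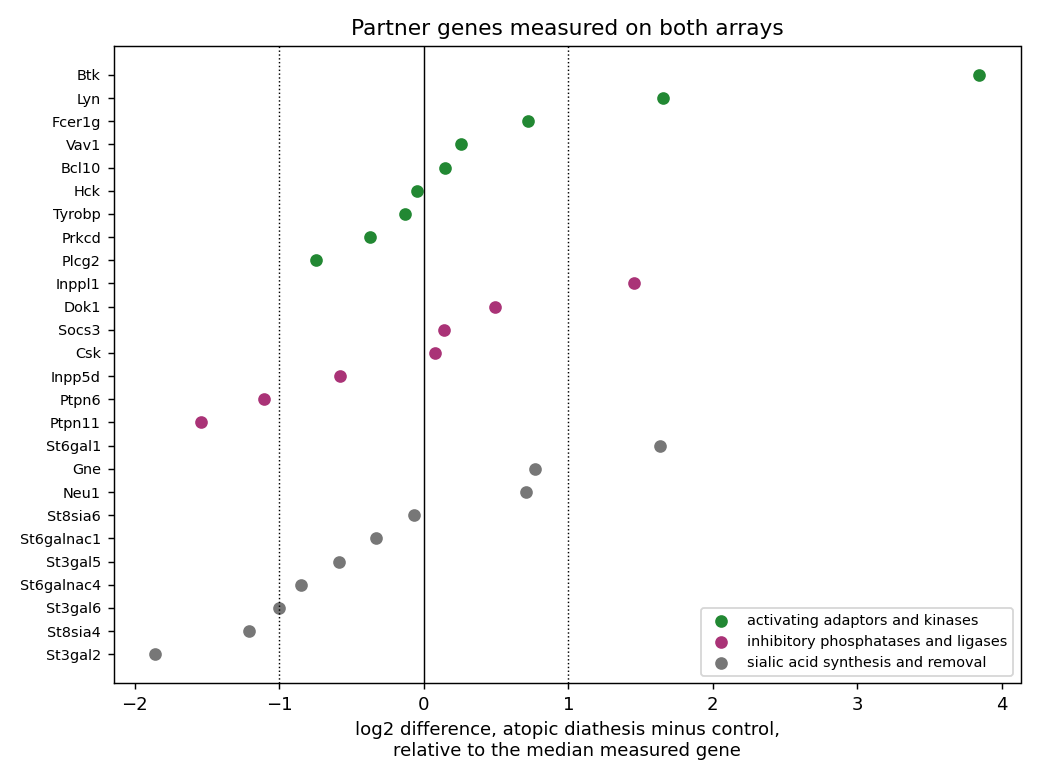
The log2 difference (horizontal axis) of partner genes measured on both arrays, coloured by list, with dotted lines at 2-fold. Btk, Lyn, Inppl1 and St6gal1 lie right of the dotted lines, and Ptpn6, Ptpn11, St8sia4, St3gal2 and, at the line, St3gal6 left.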

How the data were processed

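Per the file headers, the authors extracted both arrays with Agilent Feature Extraction 10.7.1.1 (the submitters' processing notes name 9.5.1.1), and the deposited processed signal is an intensity on a linear scale, background-subtracted and detrended. The authors' deposited series table holds intensity values with a median of 6.64 in both columns and sorted columns equal within 0.01 (log2) at 100% of ranks. Their normalization method is not stated, and they served as an alternative.

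Control spots and outlier spots (136 and 122, none of a receptor probe) were left out, spots of a probe averaged, and log2 taken. A probe was well above background where all its usable spots were. Gene names came from matching accessions to RefSeq (GRCm38.p6), with 72 of 87 receptor probes matched, and the file's name otherwise. Lilrb3 in the files is an older name of Pirb and was read as Pirb. The arrays' number limits the precision. Spot intervals come from 93 repeated probes, by dimmer signal: ±0.48 under 100 (39 probes), ±0.23 from 100 to 1000 (38) and ±0.14 above (16). Scale, filter, background and naming alternatives are in the closing section. Every receptor gene detected on either array is named, as are partner genes past 2-fold or with a 2-fold bound and the defining partners. Members and lists were chosen with earlier results of these data known. The gene summary was tested on simulated data. Python 3.11.15, pandas 2.3.3 and limma 3.58.1 (normexp, offset 50) were used. Some marker genes are not reported here.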

Additional observations from a re-analysis of the deposited data

How the results depend on the processing

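The 5 receptor genes past 2-fold kept their direction under all 15 alternatives. Each rests on 1 measured probe with no repeat or shared run, so the alternatives on probe choice, repeats and naming could hardly change them. The deposited table gave values near those of quantile normalization. The count of 3 higher became 2 with the 75th percentile of all probes, a scale on which the median measured gene lay at -0.50, and the median of the receptor genes there was -0.47. Where detection on a single array sufficed, the counts were 5 higher and 4 lower of 18 genes, and with no filter 5 higher and 3 lower of 59. Of the 2 genes with a bound of at least 2-fold in atopic diathesis only, 1 remained past it, Clec2d, with the 75th percentile of all probes, quantile normalization, normexp and uncorrected signals. In control only none reached 2-fold, but 2 did with the 75th percentile of all probes and with quantile normalization. Pirb ranged from -0.52, with the 75th percentile of all probes, to 1.70, with no filter, which admits its dimmer probes. Of the partner genes past 2-fold 1 changed sign, St3gal2, at 0.19 with no filter on dim probes. That setting averages in the second of its 2 probes, which was not well above background on both arrays. Partner genes within 2-fold also changed sign, among them, with the brightest probe alone, St6galnac4 (0.38), Cd47 (0.54), Lair1 (0.61) and Prkcd (0.16). Among all genes, 1594 were higher and 1433 lower; the 75th percentile of all probes gave 987 and 2501, normexp 1006 and 964, uncorrected signals 899 and 882, detection on a single array 3931 and 2953, no filter 5604 and 3065, and a signal of at least 50 gave 1033 and 1003. No paired analysis was possible because each group has 1 sample, and no sample could be left out. Signals under 50 on at least 1 array limit Clec2d, Clec3b, Cd300lb, Sirpb1a, Lilrb4a and the dimmer Pirb, Siglecf and Siglech probes.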

Other observations

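Of 43 lectin and paired receptor genes on the array that the name rule leaves out, 8 were measured, where 26.3% of all genes were. These 8 were within 2-fold, at a median of -0.06, where 17.3% of all measured genes were higher and 15.6% lower. They were Trem2 (log2 difference -0.04), Trem1 (0.31, on a probe with a repeat or shared run), Fcrls (0.21), Cd72 (-0.24), Lair1 (-0.09), Pilra (-0.28), Fcgr2b (-0.04) and Cd37 (-0.21). Pilra was at -1.93 where detection on a single array sufficed and at -1.35 with no filter, and the measured Lair1 probes disagreed, at -0.79 and 0.62. Klrd1, a subunit of natural killer receptors, was detected in atopic diathesis alone, at 4.37 and 84.2, at least 4.35-fold higher. Pilrb2, an activating paired receptor, was above background in control only, at 48.9 and 5.12, at least 2.40-fold lower. The inhibitory receptor for Cd200, Cd200r1, was above background in atopic diathesis only, with 34.8 there, at least 1.80-fold higher. Probes whose names in the files are older also belong to these families by accession. Cd300c2 read 476 and 537 (0.21), and Lilr4b, the close relative of Lilrb4a, read 6.26 and 30.6 and was above background in atopic diathesis only, as Lilrb4a was. Mrc1 and the Cd209 genes were detected on neither array.

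The short motif GAGGAA, which is the core of the site of PU.1, a transcription factor of macrophages and microglia, was searched on both strands in the 250 bases before each start in RefSeq promoters of GRCm38.p6. It was present in 57.1% of the 49 promoters of 45 receptor genes and in 23.3% of all 32851 promoters. Counting only receptor genes with a RefSeq promoter, it was held by 8 of 14 detected and 19 of 31 undetected ones. Related genes can share promoter sequence, so these counts are not independent, and a match of 6 letters is not a site. The motif was chosen after the values were seen. For genes past 2-fold the match nearest to a start is shown in capitals, 5′ to 3′ on the gene's strand.
Clec7a, chr6:129472858-129472887, minus strand: aaacaggatctaGAGGAAaaaagggaaatt
Mgl2, chr11:70130120-70130149, plus strand: agggtctagaaaGAGGAAtatgggacggca
Siglecf, chr7:43351264-43351293, plus strand: ggagggtgggtcTTCCTCatcgactttgcc
Siglece, chr7:43660162-43660191, minus strand: agggccttgcatctcttagTTCCTCaaagc
Clec4a3, chr6:122952582-122952611, plus strand: ctaatgccctggTTCCTCtttttcattcct
The capitals TTCCTC are the same motif read on the other strand. Clec2d held no match in this window, and neither did 1 of the Clec4a3 starts.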
